A study of Rattus norvegicus with 132 samples.

Results

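Slc12a1, Kcnj1, Egf and Ppp1r1a, 4 of the 9271 genes in the deposited table, were taken by name as genes of the thick ascending limb and followed through 4 injury groups and 4 areas of the rat kidney. The rule itself uses no measured value, but the genes were chosen with earlier results of these data known. Expression was measured with GeoMx spatial profiling, in which probes carrying barcodes bind RNA in a fixed kidney section, light frees the barcodes within a hand-drawn region (ROI), and sequencing counts them. The groups were RM, HS, the combination RM-HS, and Sham, with 3 rats each. The labels do not spell out RM and HS, which in the field of traumatic kidney injury usually mean rhabdomyolysis and hemorrhagic shock. Strain, sex, age and time after injury are not given in the sources used here.

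The ROIs were placed by hand in glomeruli (G), cortex (C), the corticomedullary junction (CMJ) and medulla (M), 132 in all. In medulla there were 9 RM, 6 HS, 9 RM-HS and 9 Sham ROIs, and each of the other groups and areas had 5 to 9. Recovered reads per ROI ranged from 17894 to 2305964, and the medullary ROIs held medians of 1389775 (RM), 316815 (HS), 1564807 (RM-HS) and 1042530 (Sham) reads. Probes were those of the mouse transcriptome set, so values are compared within a gene and not between genes. Values below are the authors' Q3-normalised signal, in which every ROI has the same upper quartile. The ROIs of each group were divided into 3 runs of wells, called RM 1 to RM 3 and so on, which the labels do not equate with animals. Wells of a run are neighbours except in RM-HS 3. Its medullary wells follow directly on RM-HS 2, and the wells of Sham 1 separate them from its other wells. Counting these medullary wells to RM-HS 3 was a choice, on which results by run in RM-HS medulla rest. Since the labels do not tie ROIs to rats, ROIs of a group share animals, and every p-value below is too small for that reason. All HS ROIs lay on a plate they shared with Sham 3 alone, and HS 3 held no medullary ROI.

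The thick ascending limb is the segment of the loop of Henle that climbs from the outer medulla into the cortex. It takes up salt without water, which dilutes the tubular fluid and builds the osmotic gradient of the medulla. Slc12a1 encodes the sodium-potassium-chloride cotransporter NKCC2 of its luminal membrane, the target of loop diuretics, and Kcnj1 encodes the potassium channel ROMK, which returns potassium to the lumen so that the cotransporter can run. Egf encodes the membrane-bound precursor of epidermal growth factor, made in the thick ascending limb and the distal convoluted tubule and released into urine. Ppp1r1a encodes inhibitor 1 of protein phosphatase 1, which blocks the phosphatase when protein kinase A has phosphorylated it.

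In the rat annotation (RefSeq, GRCr8) Slc12a1 lies at chr3:132859581-132936354, Kcnj1 at chr8:39014822-39066716, Egf at chr2:220893660-220976331 and Ppp1r1a at chr7:136533031-136540687. Promoters of the members with an entry are shown because all 4 genes were lower in medulla after RM. A link between these sequences and that fall was not tested. Each line holds the 250 bases before an annotated start, read 5′ to 3′ on the gene's strand, from chr3:132859340-132859589 (plus strand, the upstream start of 2) for Slc12a1, chr8:39037742-39037991 (plus strand, the upstream start of 2) for Kcnj1 and chr2:220976298-220976547 (minus strand) for Egf. Capitals mark a TATA box.
Slc12a1: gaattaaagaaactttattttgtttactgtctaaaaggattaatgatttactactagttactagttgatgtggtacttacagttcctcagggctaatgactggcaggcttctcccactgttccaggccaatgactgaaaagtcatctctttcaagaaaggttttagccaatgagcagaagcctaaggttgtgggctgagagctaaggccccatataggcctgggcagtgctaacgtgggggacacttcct
Kcnj1: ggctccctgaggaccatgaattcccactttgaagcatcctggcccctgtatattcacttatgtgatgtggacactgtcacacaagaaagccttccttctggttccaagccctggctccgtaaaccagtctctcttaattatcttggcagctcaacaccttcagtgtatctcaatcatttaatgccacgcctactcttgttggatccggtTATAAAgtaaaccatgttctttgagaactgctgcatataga
Egf: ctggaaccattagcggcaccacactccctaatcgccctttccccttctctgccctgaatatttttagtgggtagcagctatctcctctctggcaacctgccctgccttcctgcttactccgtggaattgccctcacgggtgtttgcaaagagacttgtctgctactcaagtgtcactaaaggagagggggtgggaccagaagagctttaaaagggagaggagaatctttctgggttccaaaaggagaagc
Ppp1r1a is named only. A search on both strands for 4 motifs found the TATA box TATAAA in the Kcnj1 promoter shown, its first base 41 bases before the start, a motif that 12.9% of 33469 rat promoter windows of this length hold. The cAMP response half-site TGACG, held by 18.2% of windows, was found in the other Kcnj1 promoter, 92 bases before its start. The HNF1 half-site GTTAAT (6.45% of windows) and the estrogen-related receptor site AAGGTCA (3.99%) were found in none of the 5 promoter windows of the members.

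In Sham kidneys all 4 genes were highest in medulla, which is where the label of the set places them, and the steps between areas differed from gene to gene. Slc12a1 had 721, 1405 and 1887 (lowest, median and highest ROI) in medulla, 187, 307 and 380 at the junction, 29.1, 47.6 and 128 in glomeruli, and 47.4, 52.8 and 133 in cortex. Its medullary ROIs lay above all others, and its level in 4 of 9 cortical ROIs was over 2 times that of the negative probe. Relative to cortex, medullary Slc12a1 was higher by 4.26 ± 0.20 on the log2 scale (SE, adjusted p = 9.72e-43) and junctional Slc12a1 by 2.21 ± 0.20 (adjusted p = 9.72e-19). The glomerular value did not differ from cortex (-0.28 ± 0.20, adjusted p = 0.263). These and all later adjusted p-values come from limma with Benjamini-Hochberg adjustment over 8827 genes.

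Ppp1r1a was higher by 2.39 ± 0.14 in Sham medulla and by 0.89 ± 0.14 at the junction than in cortex (adjusted p = 5.12e-32 and 2.25e-07). Kcnj1 was higher in medulla by 1.86 ± 0.17 (adjusted p = 6.36e-18), while its junctional level was not distinguished from cortex (0.28 ± 0.17, adjusted p = 0.452). Egf had the flattest profile, higher by 1.12 ± 0.19 in medulla and by 0.76 ± 0.19 at the junction (adjusted p = 1.35e-06 and 0.00191). The junctional step of Egf missed the threshold without Sham 1 (0.66, adjusted p = 0.0849), with quantile normalisation (0.11, adjusted p = 0.725), with 1 mean per run and area (0.76, adjusted p = 0.116) and within plate E (0.83, adjusted p = 0.516), where that of Ppp1r1a also missed it (0.86, adjusted p = 0.124). In glomeruli Kcnj1, Egf and Ppp1r1a were lower than in cortex, by -1.13, -1.19 and -0.86, where 35.6% of all genes were lower. All 4 members were thus higher in medulla than in cortex, against 6.39% of all genes tested, and 3 of the 4 were higher at the junction, against 6.94%.

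Of 20 other thick ascending limb genes 14 were tested, and they showed a looser medullary pattern than the 4 members. Between Sham medulla and cortex 5 were higher, 1 was lower and 8 did not pass. Irx1 and Pou3f3, transcription factors of the loop of Henle, were higher by 1.50 and 1.16, and Cldn19, a tight junction claudin, by 0.75. All 13 proximal tubule markers were lower in Sham medulla, with a median difference of -2.21, against -0.05 over all genes. The share of all genes called lower there is not given here.

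**Figure D1:**
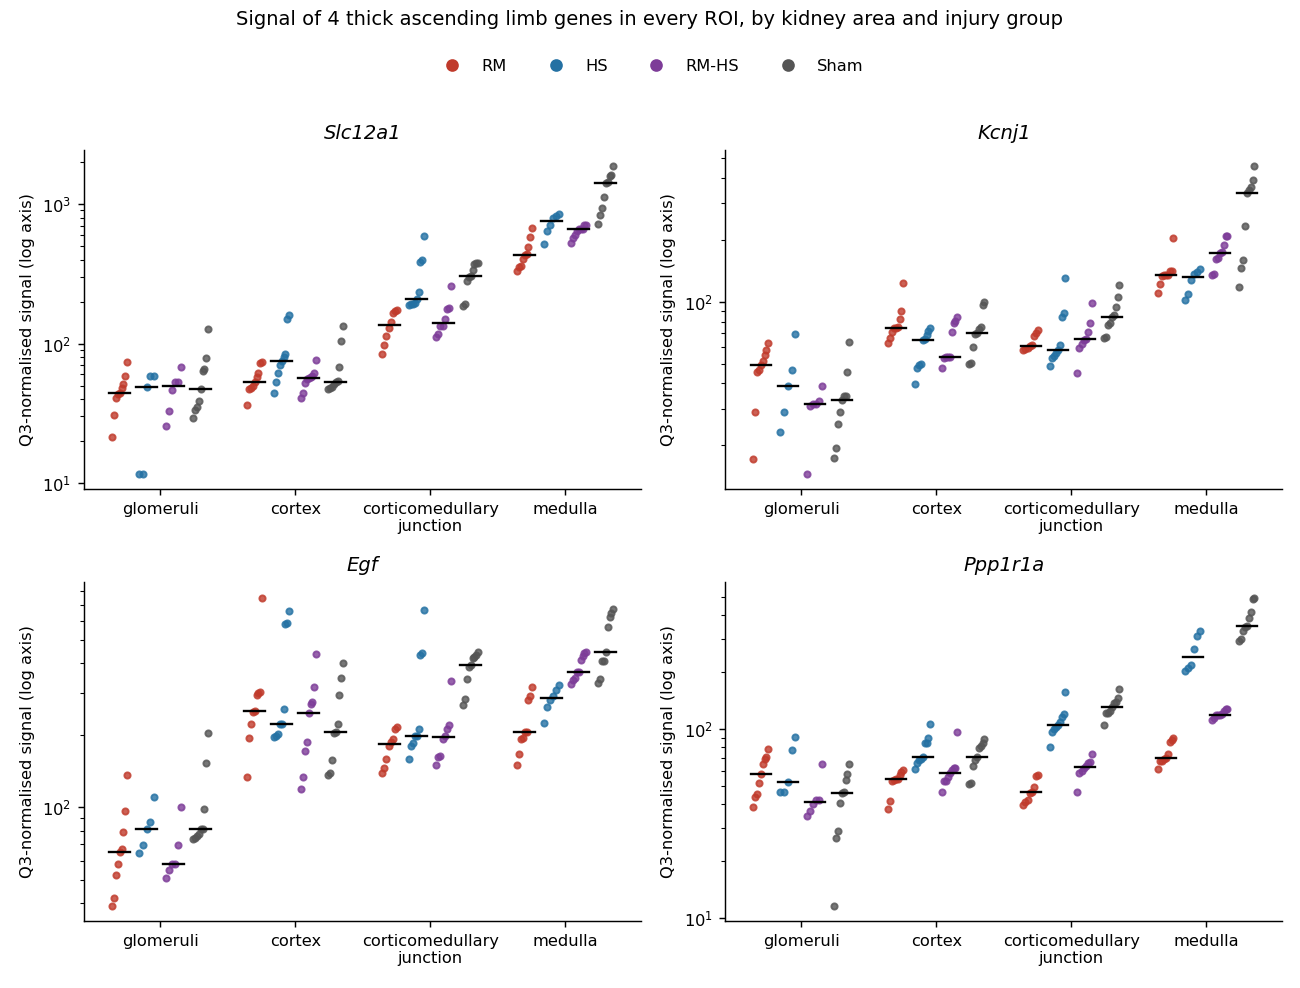
Q3-normalised signal (log axis) of Slc12a1, Kcnj1, Egf and Ppp1r1a in every ROI, by area and, within an area, by RM, HS, RM-HS and Sham. Points are ROIs and black bars are medians. Medulla is the highest area for Slc12a1 in all 4 groups, and RM and RM-HS medulla lie below Sham medulla for Slc12a1 and Ppp1r1a without overlap.

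All 4 genes were lower in RM than in Sham medulla, with the largest difference in Ppp1r1a. Ppp1r1a had 61.6, 70.6 and 89.1 in RM medulla (lowest, median and highest of 9 ROIs) and 292, 351 and 492.8 in Sham medulla. Every RM ROI lay far below every Sham ROI, and the mean of RM was 19.8% of that of Sham. Ppp1r1a fell by 2.25 ± 0.18 on the log2 scale (adjusted p = 1.04e-20), and leaving out any well run kept the change between -2.39 and -2.17. In these bulk regions fewer cells of a type and less RNA per cell cannot be told apart.

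Slc12a1 had 330, 432 and 679 in RM medulla and 721, 1405 and 1887 in Sham medulla, again with no overlap. It fell by 1.37 ± 0.25 (adjusted p = 1.73e-05), to 35.3% of the Sham mean, and with each well run left out in turn the change lay between -1.76 and -1.07. Egf had 150, 206 and 317 in RM medulla and 331, 445 and 674 in Sham medulla, also without overlap. Its fall of 1.02 ± 0.24 (adjusted p = 0.00134) missed the threshold without RM 2 (-0.85, adjusted p = 0.0517). RM 3 was the highest RM run for Egf, with a mean of 296, against 202 and 170 in RM 1 and RM 2.

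Kcnj1 had 110, 134 and 203 in RM medulla and 118, 336 and 458 in Sham medulla, and here the groups overlapped. Only the ROIs of Sham 1 fell within the RM range: they averaged 141, against 324 and 385 in Sham 2 and Sham 3. The fall of Kcnj1 was 0.80 ± 0.22 (adjusted p = 0.00805). It missed the threshold without RM 1 (-0.76, adjusted p = 0.0520), Sham 2 (-0.53, adjusted p = 0.419) or Sham 3 (-0.61, adjusted p = 0.117), and was -1.26 without Sham 1 (adjusted p = 5.04e-05). Sham 1 was also the lowest Sham run for the other members, with 828 for Slc12a1 against 1377 and 1634.

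All 4 members thus passed the test downward in RM medulla, where 1.12% of all genes did so (5.96% in either direction). With 1 mean per run and area Kcnj1 and Egf missed the threshold (adjusted p = 0.237 and 0.0557), and with the negative probe subtracted Slc12a1 and Kcnj1 did (adjusted p = 0.0724 and 0.451). The median change of the 4 was -1.20, against -0.07 over all genes. Of the 4, 3 had no overlap of ROIs with Sham, which 1.56% of all genes showed downward.

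**Figure D2:**
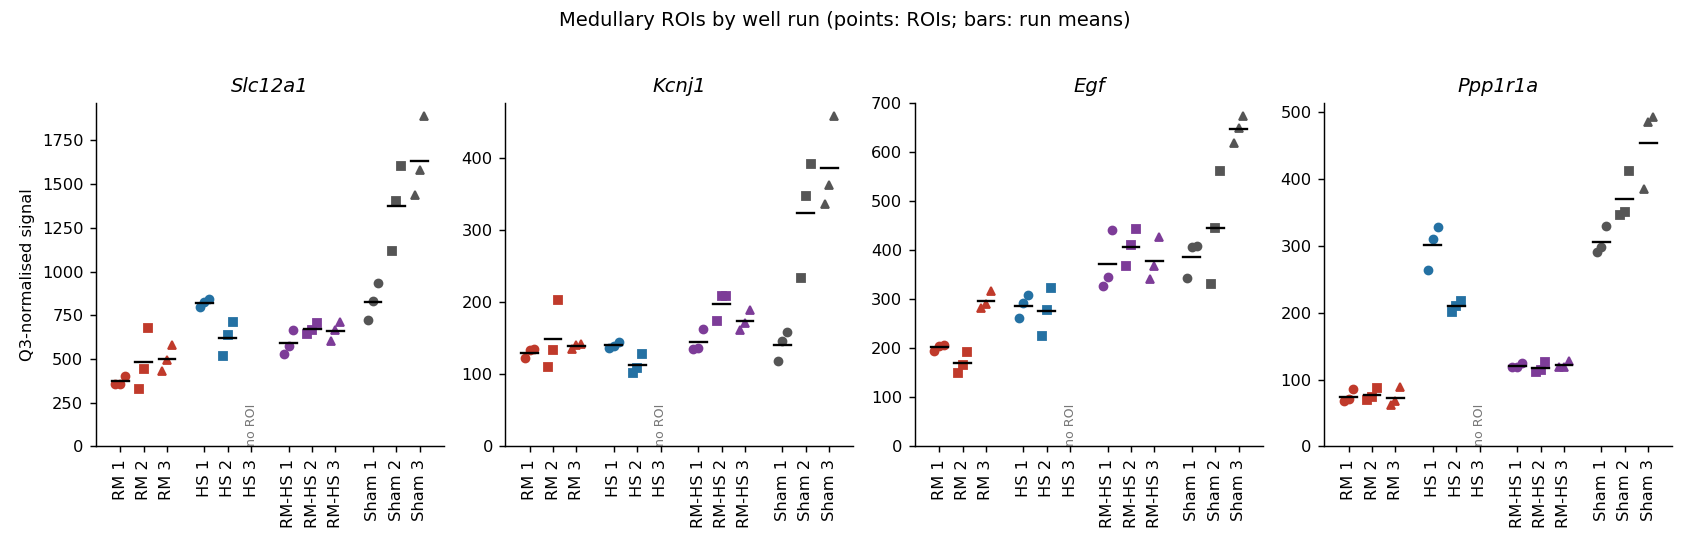
Q3-normalised signal (linear axis from 0) of the 4 genes in medullary ROIs, by well run, in the order RM, HS, RM-HS and Sham. Points are ROIs and bars are run means. Ppp1r1a lies at 61.6 to 89.1 in RM and 111 to 127 in RM-HS, and Sham 1 stands below the other Sham runs for Slc12a1 and Kcnj1.

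At the corticomedullary junction 3 of the 4 genes fell after RM, against 0.782% of all genes lowered there (5.64% called). Ppp1r1a had 39.6, 46.3 and 56.9 in 8 RM ROIs and 105, 131 and 162 in 9 Sham ROIs, without overlap, and fell by 1.40 ± 0.19 (adjusted p = 1.10e-09). Slc12a1 had 84.6, 137 and 175 in RM and 187, 307 and 380 in Sham, and fell by 1.06 ± 0.26 (adjusted p = 0.00254). Egf had 139, 184 and 216 in RM and 266, 392.2 and 446 in Sham, and fell by 0.94 ± 0.25 (adjusted p = 0.00587). Neither of these genes overlapped with Sham, and the share of all genes without overlap at the junction was not counted. Both missed the threshold without RM 2 (Slc12a1 -0.88, adjusted p = 0.0718, and Egf -0.83, adjusted p = 0.0822) or without Sham 2 (-0.79, adjusted p = 0.191, and -0.75, adjusted p = 0.182). They also missed it with 1 mean per run and area (adjusted p = 0.153 for Slc12a1 and 0.110 for Egf), as did Slc12a1 with the negative probe subtracted (adjusted p = 0.162). Kcnj1 had 58.2, 61.1 and 72.9 in RM and 66.2, 84.3 and 121 in Sham, a difference of -0.33 ± 0.22 that did not pass (adjusted p = 0.502).

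In cortex none of the 4 passed the test after RM, where 5.49% of all genes did, and the differences ran from -0.36 for Ppp1r1a to 0.41 for Egf. The difference between the medullary and the cortical effect of RM was itself tested, and 2.15% of all genes were called lower in that test (2.98% called). It was -1.89 ± 0.20 for Ppp1r1a (adjusted p = 3.28e-13), -1.43 ± 0.27 for Egf (adjusted p = 5.27e-05), -1.26 ± 0.28 for Slc12a1 (adjusted p = 0.00133) and -1.06 ± 0.24 for Kcnj1 (adjusted p = 0.00178). Without RM 1 it was -1.07 for Slc12a1 and -0.89 for Kcnj1 (adjusted p = 0.0566 and 0.0729). With 1 mean per run and area only Ppp1r1a among the 4 kept this call (adjusted p = 0.335 for Slc12a1, 0.395 for Kcnj1 and 0.0569 for Egf), and with the negative probe subtracted Slc12a1 and Kcnj1 lost it (adjusted p = 0.726 and 0.592). An F test of whether the RM effect differed over the 4 areas also passed for each gene, with adjusted p from 7.17e-26 (Ppp1r1a) to 0.000306 (Slc12a1), where 9.72% of all genes passed. With 1 mean per run and area it passed for Ppp1r1a alone among the 4 (adjusted p = 0.246 for Slc12a1, 0.177 for Kcnj1 and 0.0592 for Egf), and with the negative probe subtracted it missed the threshold for Slc12a1 (adjusted p = 0.175). Between medulla and junction the effect of RM differed for Ppp1r1a alone among the 4, by -0.85 ± 0.20 (adjusted p = 0.00640, 1.59% of genes called).

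Along the kidney the profile of Egf had another shape after RM. Medullary Egf in RM kidneys was not distinguished from the cortical level (-0.31 ± 0.19, adjusted p = 0.334, 14.7% of genes called). Junctional Egf lay below cortex in RM kidneys (-0.59 ± 0.19, adjusted p = 0.0382) and above it in Sham (0.76). RM cortex held 1 ROI of 748 (nearest 302), and its means were 412, 203 and 284 in RM 1, RM 2 and RM 3. At the junction these runs averaged 189, 155 and 200. The share of all genes called for this junctional step in RM, and its values with runs left out, are not given here. The glomerular step from cortex was -1.91 in RM and -1.19 in Sham. Whether the junctional and glomerular steps differed between RM and Sham was not tested singly. The other 3 kept a medullary excess over cortex in RM kidneys, of 3.00 for Slc12a1, 0.80 for Kcnj1 and 0.50 for Ppp1r1a (adjusted p = 9.75e-29, 0.000108 and 0.00578). That of Ppp1r1a missed the threshold without RM 2 (0.37, adjusted p = 0.253).

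In glomeruli, the filtering tufts, recovered counts were low, from 1 to 54 per ROI for a member, and a count of 1 may mean no read. Ppp1r1a had 38.8, 58.2 and 78.4 in RM glomeruli and 11.6, 45.7 and 65.4 in Sham glomeruli, with the groups overlapping. It rose by 0.69 ± 0.19 after RM (adjusted p = 0.00547, with 12.8% of all genes called there and 10.1% higher). The fit left out 1 RM glomerular ROI that was alone on its plate. The rise missed the threshold without Sham 1 (0.67, adjusted p = 0.0570), with edgeR on recovered reads (0.48, adjusted p = 0.241) and within glomeruli alone (0.71, adjusted p = 0.352).

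**Figure D3:**
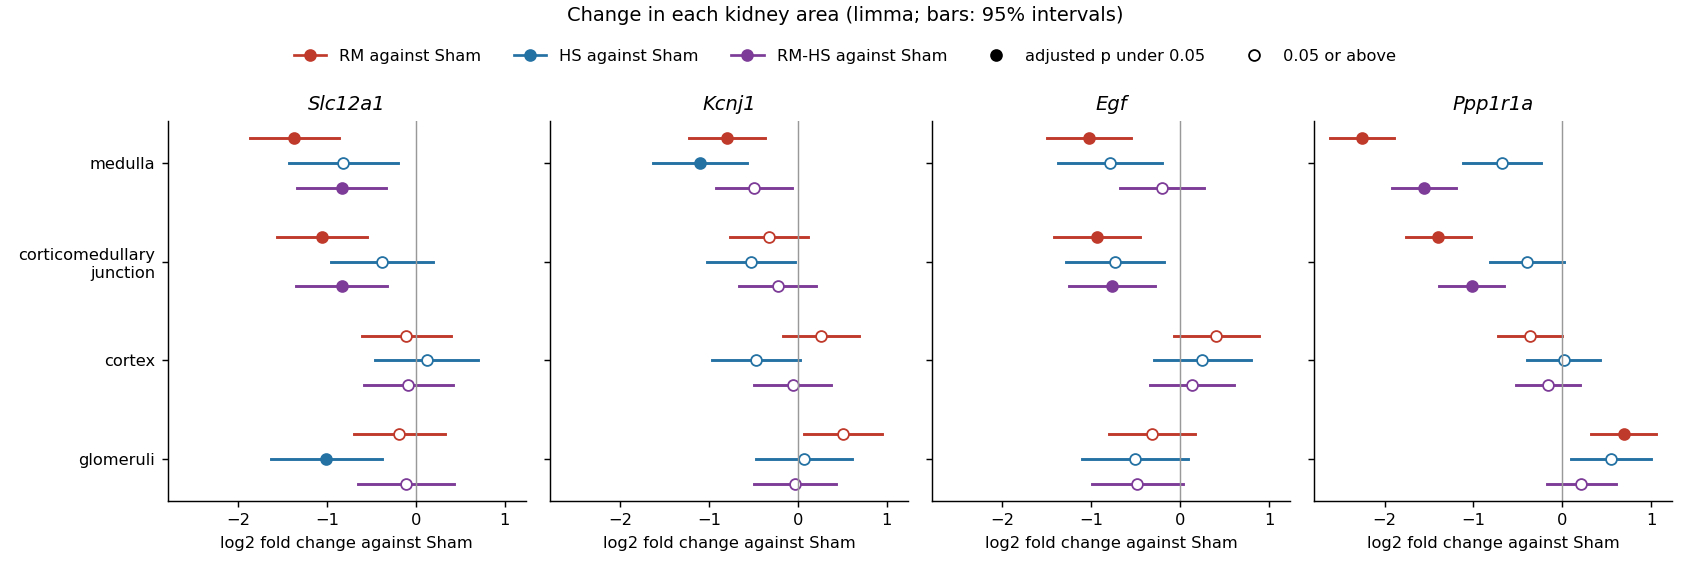
Log2 fold change against Sham of the 4 genes in each area for RM, HS and RM-HS, from limma. Points are estimates, filled where the adjusted p was under 0.05, and bars are 95% intervals. Filled points below 0 lie in medulla and at the junction, apart from Slc12a1 in HS glomeruli, and none lies in cortex.

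HS gave smaller or less certain differences in medulla. Kcnj1 had 102, 132 and 144 in 6 HS ROIs and 118, 336 and 458 in Sham, where only the ROIs of Sham 1 overlapped with HS. It fell by 1.10 ± 0.27 (adjusted p = 0.0238), and it was the only member of the 4 to pass in HS medulla, where 0.329% of all genes were lower (0.374% called). Without HS 2 it was -0.88 (adjusted p = 0.887), without Sham 2 -0.97 (adjusted p = 0.187), and within the plate that HS shared with Sham 3 it was -1.45 (adjusted p = 0.0731).

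Egf had 225, 285 and 324 in HS medulla and 331, 445 and 674 in Sham, without overlap, as in 0.385% of genes downward. Slc12a1 had 516, 754 and 844 in HS against 721, 1405 and 1887 in Sham. Ppp1r1a had 202, 241 and 328 in HS and 292, 351 and 492.8 in Sham. Their differences were -0.79 ± 0.30, -0.82 ± 0.31 and -0.68 ± 0.22, with adjusted p = 0.437, 0.459 and 0.271. The 95% intervals, -1.37 to -0.21 for Egf, -1.43 to -0.20 for Slc12a1 and -1.12 to -0.24 for Ppp1r1a, lay below 0 before adjustment. Sham 3, the Sham run on the HS plate, was the highest Sham run in medulla for all 4 genes. With all Sham runs and no plate term the HS difference was -0.60 for Slc12a1, -0.90 for Kcnj1, -0.55 for Egf and -0.56 for Ppp1r1a. Against Sham 1 and Sham 2, also without a plate term, the HS difference was -0.39 for Slc12a1, -0.62 for Kcnj1, -0.33 for Egf and -0.42 for Ppp1r1a, and none passed.

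At the junction no member passed after HS, where 0.283% of genes did, and HS 3 stood apart there. Egf averaged 513 in HS 3 against 184 and 194 in HS 1 and HS 2, and Slc12a1 averaged 455.5 against 206 and 197. In cortex HS 3 was high for Egf as well, with 609 against 219 and 213. Without HS 3 the junctional difference of Egf was -1.20 (adjusted p = 0.000492), against -0.73 ± 0.28 (adjusted p = 0.713) with it. In cortex no member passed after HS (0.0793% of genes called). In HS glomeruli the 2 lowest ROIs of Slc12a1 held a count of 1 each, which may mean no read. Slc12a1 had 11.6, 48.5 and 58.2 in 5 HS ROIs and 29.1, 47.6 and 128 in Sham glomeruli. It fell by 1.01 ± 0.32 (adjusted p = 0.0284, 9.52% of genes called and 5.55% lower), which missed the threshold without HS 1 (-0.67, adjusted p = 0.176), HS 2 (-0.86, adjusted p = 0.0643) or Sham 2 (-0.91, adjusted p = 0.0627). It also missed the threshold with 6 other settings, with values from -1.46 to -0.65 and adjusted p from 0.0546 to 0.794. Averaged over areas no member passed after HS (0.170% of genes called). The HS effect differed between areas for all 4 genes by the F test (adjusted p from 0.000251 for Ppp1r1a to 0.0172 for Slc12a1, 13.6% of genes called), and with HS 1, HS 2, HS 3, Sham 1, Sham 2 or Sham 3 left out this call was lost for 1 or more of Slc12a1, Kcnj1 and Egf. With 1 mean per run and area it was lost for all 3 of these (adjusted p = 0.189, 0.334 and 0.210), and within plate E for Slc12a1, Egf and Ppp1r1a (adjusted p = 0.494, 0.186 and 0.0543). With the negative probe subtracted it was lost for Slc12a1 and Kcnj1 (adjusted p = 0.121 and 0.127), and with quantile normalisation for Egf (adjusted p = 0.155).

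Ppp1r1a and Slc12a1 were lower in RM-HS than in Sham medulla, and the values of the other members did not pass. Ppp1r1a had 111, 119 and 127 in RM-HS medulla and 292, 351 and 492.8 in Sham, and fell by 1.56 ± 0.18 (adjusted p = 5.34e-12), to 31.9% of the Sham mean. Slc12a1 had 528, 664 and 712 in RM-HS and 721, 1405 and 1887 in Sham, and fell by 0.83 ± 0.25 (adjusted p = 0.0322). Neither gene overlapped with Sham, which 1.59% of genes showed downward, and 0.906% of genes were called lower (4.50% in either direction). The fall of Slc12a1 missed the threshold without RM-HS 1, RM-HS 2, RM-HS 3, Sham 2 or Sham 3, with changes from -0.87 to -0.54 and adjusted p from 0.0910 to 0.678, and was -1.23 without Sham 1 (adjusted p = 0.00945). It also missed the threshold with 1 mean per run and area and with the negative probe subtracted (adjusted p = 0.443 and 0.506).

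Kcnj1 had 135, 172 and 209 in RM-HS medulla and 118, 336 and 458 in Sham, a difference of -0.49 ± 0.22 (adjusted p = 0.300). Without Sham 1 it was -0.95 and passed (adjusted p = 0.00616). Egf had 328, 368 and 442 in RM-HS and 331, 445 and 674 in Sham, largely overlapping, with a difference of -0.20 ± 0.24 (adjusted p = 0.999) and a 95% interval from -0.68 to 0.27.

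At the junction 3 of the 4 genes fell after RM-HS, where 0.997% of all genes were lower (6.15% called). Ppp1r1a had 46.2, 62.8 and 73.4 in RM-HS and 105, 131 and 162 in Sham, and fell by 1.02 ± 0.19 (adjusted p = 1.13e-05). Slc12a1 had 112, 141 and 259 in RM-HS and fell by 0.83 ± 0.26 (adjusted p = 0.0280), and Egf had 151, 196 and 335 and fell by 0.77 ± 0.25 (adjusted p = 0.0365). In both genes 7 of 8 RM-HS ROIs lay below every Sham ROI, which was not counted over all genes. Slc12a1 missed the threshold without RM-HS 1, RM-HS 3, Sham 2 or Sham 3, and Egf without RM 3, RM-HS 1, RM-HS 3, Sham 1 or Sham 2, with the smallest changes, -0.56 and -0.58, without Sham 2. Both missed it with the negative probe subtracted (adjusted p = 0.354 for Slc12a1 and 0.0544 for Egf) and with 1 mean per run and area (adjusted p = 0.383 and 0.286), as did Slc12a1 within the junction alone (adjusted p = 0.0609). Kcnj1 differed by -0.23 ± 0.22 (adjusted p = 0.649). In cortex and glomeruli none passed after RM-HS (3.78% and 6.62% of genes called). The effect of RM-HS differed between areas for Ppp1r1a (F test, adjusted p = 5.92e-12, 7.51% of genes called), and for the other 3 that test gave adjusted p from 0.0715 to 0.573. For Slc12a1 it passed with a pseudocount of 5, quantile normalisation and total-read scaling (adjusted p = 0.0380, 2.88e-05 and 0.0423).

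Averaged over the 4 areas, Ppp1r1a fell after RM by 0.83 ± 0.13 (adjusted p = 4.10e-07) and after RM-HS by 0.63 ± 0.14 (adjusted p = 0.000304). Slc12a1 fell after RM by 0.68 ± 0.19 (adjusted p = 0.00711), and missed the threshold without RM 2 or Sham 2 (-0.59 and -0.36, adjusted p = 0.0865 and 0.476), with 1 mean per run and area (adjusted p = 0.0952) or with the negative probe subtracted (adjusted p = 0.133). RM called 8.30% of all genes in that average and RM-HS called 6.83%.

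The 3 injuries did not overlap with each other in medullary Ppp1r1a: RM was lowest, RM-HS lay above it and HS above both, and HS reached into the Sham range. Of all genes, 1.10% lay lower in RM than in HS without overlap and 0.952% lower in RM-HS than in HS. In RM against HS it was lower by -1.57 ± 0.26 (adjusted p = 3.65e-06, 3.68% of genes called), and at the junction by -1.001 ± 0.25 (adjusted p = 0.0114, 1.44% of genes called), which missed the threshold without RM 2 (-0.92, adjusted p = 0.0990). RM-HS was lower than HS by -0.88 ± 0.26 (adjusted p = 0.0472, 1.98% of genes called) and higher than RM by 0.69 ± 0.17 (adjusted p = 0.0221, 0.589% of genes called). The contrast of RM-HS with RM lost its call without any 1 of the 3 RM or 3 RM-HS runs, with values from 0.67 to 0.71, and that with HS lost it in 9 of 11 such fits, among them the one without HS 1 (-0.64, adjusted p = 0.258). Both also lost it with total-read scaling, with the negative probe subtracted and with 1 mean per run and area (adjusted p from 0.0653 to 0.9998 against RM and from 0.0527 to 0.252 against HS).

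Egf was also higher in RM-HS than in RM medulla, and all 9 RM-HS ROIs lay above all 9 RM ROIs, as in 0.759% of genes. The difference was 0.82 ± 0.23 (adjusted p = 0.0664), and it passed without HS 2, HS 3 or RM 3 (adjusted p = 0.0494, 0.00297 and 0.0430). Without HS 2 or HS 3, which belong to neither group, the difference itself stayed at 0.82. It also passed within plate C, which holds both groups (0.82, adjusted p = 0.00558), within medulla alone (adjusted p = 4.37e-05), with quantile normalisation (0.98, adjusted p = 0.000558), without the block (adjusted p = 0.0340) and with edgeR (0.74, adjusted p = 0.0201). It did not without RM 2 (0.64, adjusted p = 0.996) or with 1 mean per run and area (adjusted p = 0.9998). Slc12a1 and Kcnj1 were higher in RM-HS than in RM by 0.53 ± 0.24 and 0.31 ± 0.21, neither of which passed (adjusted p = 0.861 and 0.998, 95% intervals 0.06 to 1.005 and -0.10 to 0.71). Among the other thick ascending limb genes tested only Cldn19 passed in this contrast, and it went the other way. Cldn19 was lower in RM-HS than in RM medulla (-0.82 ± 0.20, adjusted p = 0.0204, 0.589% of genes called).

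The interaction asked whether the change after RM-HS equalled the sum of the separate changes after RM and HS on the log2 scale. In medulla it was positive for all 4 genes, so the combination lay above that sum. It was 1.61 ± 0.37 for Egf (adjusted p = 0.0148), 1.41 ± 0.34 for Kcnj1 (adjusted p = 0.0226), 1.37 ± 0.28 for Ppp1r1a (adjusted p = 0.00405) and 1.35 ± 0.39 for Slc12a1 (adjusted p = 0.136). Of all genes, 0.340% were called (0.272% upward). Since HS enters this test with 2 medullary runs, the values without HS 2 matter: 1.47 for Egf, 1.19 for Kcnj1 and 1.12 for Ppp1r1a, none of them past the threshold (adjusted p = 0.230, 0.467 and 0.208). Egf also missed it without RM 2 or RM-HS 2, and Kcnj1 without RM 1, RM 2, RM 3, RM-HS 2, RM-HS 3 or Sham 2. With 1 mean per run and area no member passed, and with the negative probe subtracted Kcnj1 and Ppp1r1a did not (adjusted p = 0.999 each). Kcnj1 also missed the threshold with total-read scaling and with no plate term (adjusted p = 0.0698 and 0.0532). For Slc12a1 it passed with quantile normalisation, without the block, with edgeR and within medulla alone (1.44 to 1.72, adjusted p from 0.000116 to 0.00497). In glomeruli the interaction was -1.02 ± 0.30 for Ppp1r1a (adjusted p = 0.0183, 7.58% of genes called), and the values of the other members did not pass. That of Ppp1r1a missed the threshold with edgeR (-0.92, adjusted p = 0.517) and within glomeruli alone (-0.95, adjusted p = 0.494).

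Log2 ratios of members within a ROI were compared over run means with exact permutation tests, two-sided. With 3 runs against 3 these exact tests cannot go below p = 0.1, so no ratio could pass and the values are a description. Slc12a1 over Ppp1r1a was 2.55 (log2, mean of runs) in RM medulla and 1.72 in Sham, with no overlap of runs (difference 0.84, exact p = 0.1, 0.15 adjusted over 6 ratios). Kcnj1 over Ppp1r1a was 0.88 in RM and -0.53 in Sham, and Egf over Ppp1r1a was 1.53 in RM and 0.36 in Sham, each without overlap (exact p = 0.1 each, 0.15 adjusted). Slc12a1 over Kcnj1 was lower in RM, 1.67 against 2.25 in Sham, also without overlap (exact p = 0.1, 0.15 adjusted). After HS the runs overlapped with Sham for every ratio (exact p from 0.6 to 1 over 2 HS and 3 Sham runs). After RM-HS the ratios to Ppp1r1a were 2.40 for Slc12a1, 0.50 for Kcnj1 and 1.66 for Egf, above all Sham runs, and Slc12a1 over Egf was 0.73 in RM-HS and 1.35 in Sham, below all Sham runs (exact p = 0.1 each, 0.12 adjusted).

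**Figure D4:**
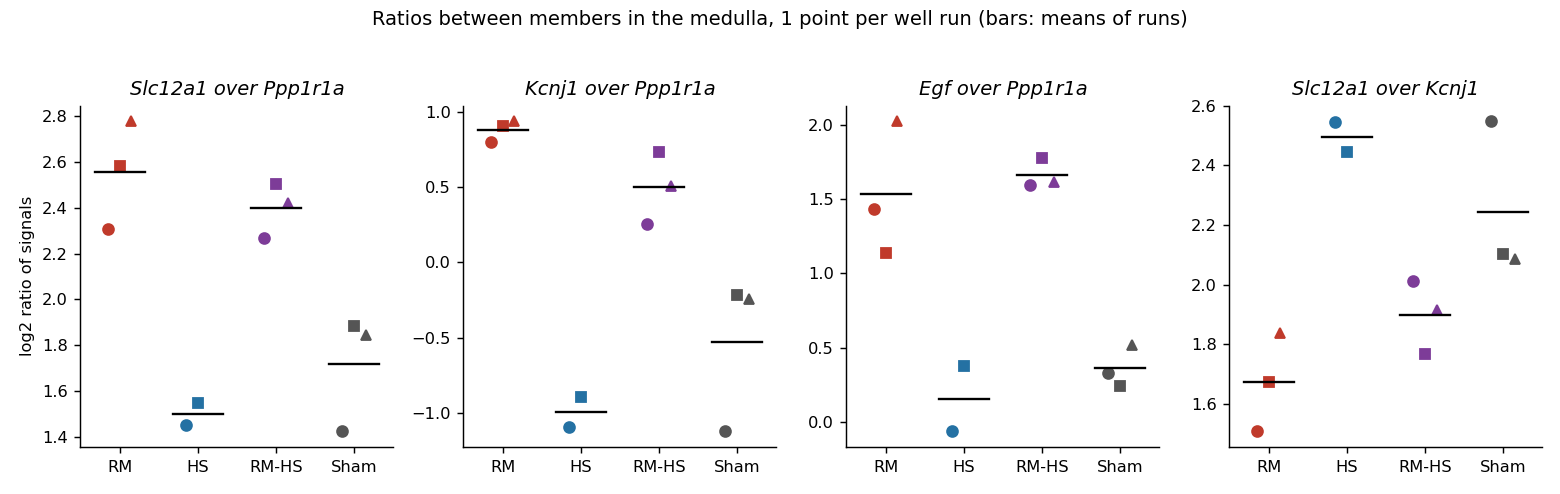
Log2 ratios of Slc12a1, Kcnj1 and Egf to Ppp1r1a and of Slc12a1 to Kcnj1 in medulla, 1 point per well run, in RM, HS, RM-HS and Sham. Bars are means of runs. The ratios to Ppp1r1a lie higher in RM and RM-HS than in Sham without overlap, and those of HS lie within or below the Sham range.

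Across the 33 medullary ROIs, with the group means removed, Slc12a1 and Kcnj1 varied together (Pearson r = 0.908), more closely than Slc12a1 and Egf (r = 0.651), Slc12a1 and Ppp1r1a (r = 0.557) or Egf and Ppp1r1a (r = 0.345). Within the 9 RM ROIs, Slc12a1 and Ppp1r1a had r = -0.07, against 0.872 within the 9 Sham ROIs. These ROIs share sections, runs and the normalisation, and the values are a description. Over the 16 means of group and area, the genes most like Slc12a1 were H1f0 (r = 0.926), Snrpd2 (0.920), Irx1 (0.907) and Hoxb7 (0.906), and those most like Kcnj1 were Kcnt1 (0.934), Ephb2 (0.923), Spon1 (0.923) and Atp5g1 (0.922). For Egf they were Fxyd2, the gamma subunit of the sodium pump (0.950), Idh2 (0.925), Esrrg (0.924) and Rab17 (0.922), and for Ppp1r1a they were Anxa6 (0.918), Gm266 (0.900), Hoxb6 (0.887) and Rnf123 (0.875). Kcnj1 ranked 5th among all genes by likeness to Slc12a1, while Ppp1r1a ranked 691st by likeness to Egf.

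For the rest of the thick ascending limb list the difference from the members was not tested. In RM medulla 3 of 14 tested genes fell, where 1.12% of all genes did, none rose and 11 did not pass. Their median was -0.31, against -0.07 over all genes. Of these 14 genes 6 averaged under 2 times the negative probe in RM medulla, 7 in RM-HS and 2 in Sham, against 0 of the 4 members in each, and near background the log2(signal + 1) scale understates changes. The loop transcription factor Pou3f3 had 49.2, 59.0 and 75.2 in RM and 92.4, 137 and 186 in Sham, and fell by 1.07 ± 0.17 (adjusted p = 2.01e-07). The transcription factor Tfap2b fell by 0.65 ± 0.20 (adjusted p = 0.0321). Kcnj16, a basolateral potassium channel subunit, and the claudins Cldn10, Cldn16 and Cldn19, which form the paracellular path for cations, gave differences from 0.00089 to 0.46 that did not pass. After RM-HS Pou3f3 and Irx1 fell, by 0.99 and 0.62, where 0.906% of all genes fell, and 12 did not pass. After HS none of the 14 passed (median -0.31, against -0.02 over all genes). The levels of the list summed to 816 to 1008 in RM, 934 to 1129 in HS, 839.8 to 1018 in RM-HS and 943 to 1436 in Sham medulla.

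Among 14 genes of the sodium pump and of salt transport control, 4 fell in RM medulla and none rose, where 1.12% of all genes fell and 4.84% rose. They were Stk39, the kinase SPAK that phosphorylates NKCC2 (-0.65 ± 0.18, adjusted p = 0.0117), Slc9a3, the sodium-proton exchanger NHE3 (-0.69 ± 0.20, adjusted p = 0.0127), Adcy6, an adenylyl cyclase (-0.54 ± 0.15, adjusted p = 0.0152), and Fxyd2 (-0.59 ± 0.20, adjusted p = 0.0477). Stk39 had 59.3, 79.0 and 81.9 in RM and 93.1, 112 and 134 in Sham, without overlap. After RM-HS Stk39 and Adcy6 fell, by 0.66 and 0.61, and after HS only Fxyd2 did, by 1.18 ± 0.24 (adjusted p = 0.00318). Medians over the list were -0.21 after RM, -0.14 after HS and -0.04 after RM-HS.

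Of 10 genes of protein phosphatase 1 and protein kinase A, among them other regulatory subunits of the phosphatase, none fell in medulla after any injury. After RM, 2 rose, where 4.84% of all genes did: Ppp1r9b, the scaffold spinophilin, by 0.85 ± 0.17, and Ppp1r15a, the stress-induced phosphatase subunit GADD34, by 0.63 ± 0.17 (adjusted p = 0.000134 and 0.00628). Both rose after RM-HS as well, where 3.59% of all genes did, by 0.65 and 0.67 (adjusted p = 0.00958 and 0.00490). Ppp1r9b had 167, 179 and 205 in RM, 81.4, 102 and 120 in HS, 142, 157 and 172 in RM-HS and 83.5, 107 and 136 in Sham medulla, so that RM and RM-HS lay above Sham without overlap. The share of all genes that did so upward is not given here.

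The list of ligands and receptors of the epidermal growth factor family had 5 tested genes. They were the ligands Hbegf and Nrg1, the receptor Erbb4, Errfi1 and Trpm7, of which the last 2 are neither ligand nor receptor. The epidermal growth factor receptor itself was not among them. None fell in medulla after any injury. Hbegf, a ligand of the epidermal growth factor receptor, had 37.7, 53.0 and 84.5 in RM medulla and 16.5, 19.1 and 26.4 in Sham. It rose by 1.48 ± 0.28 (adjusted p = 2.57e-05), without overlap, and the share of all genes without overlap upward is not given here. After RM-HS 3 of the 5 rose, where 3.59% of all genes did. Of these 3, only 1 was a ligand and none a receptor. Hbegf rose by 1.37 ± 0.28, Errfi1, a feedback inhibitor of the receptor, by 0.93 ± 0.22, and Trpm7, a magnesium channel, by 0.91 ± 0.29 (adjusted p = 0.000160, 0.00149 and 0.0468). In Sham medulla Hbegf and Trpm7 lay at 1.11 and 1.35 times the negative probe (medians), close to background. At the junction Nrg1 and Errfi1 rose after RM, by 0.98 and 0.76, and Errfi1 and Hbegf after RM-HS, by 1.16 and 0.98. After HS none passed in either area.

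**Figure D5:**
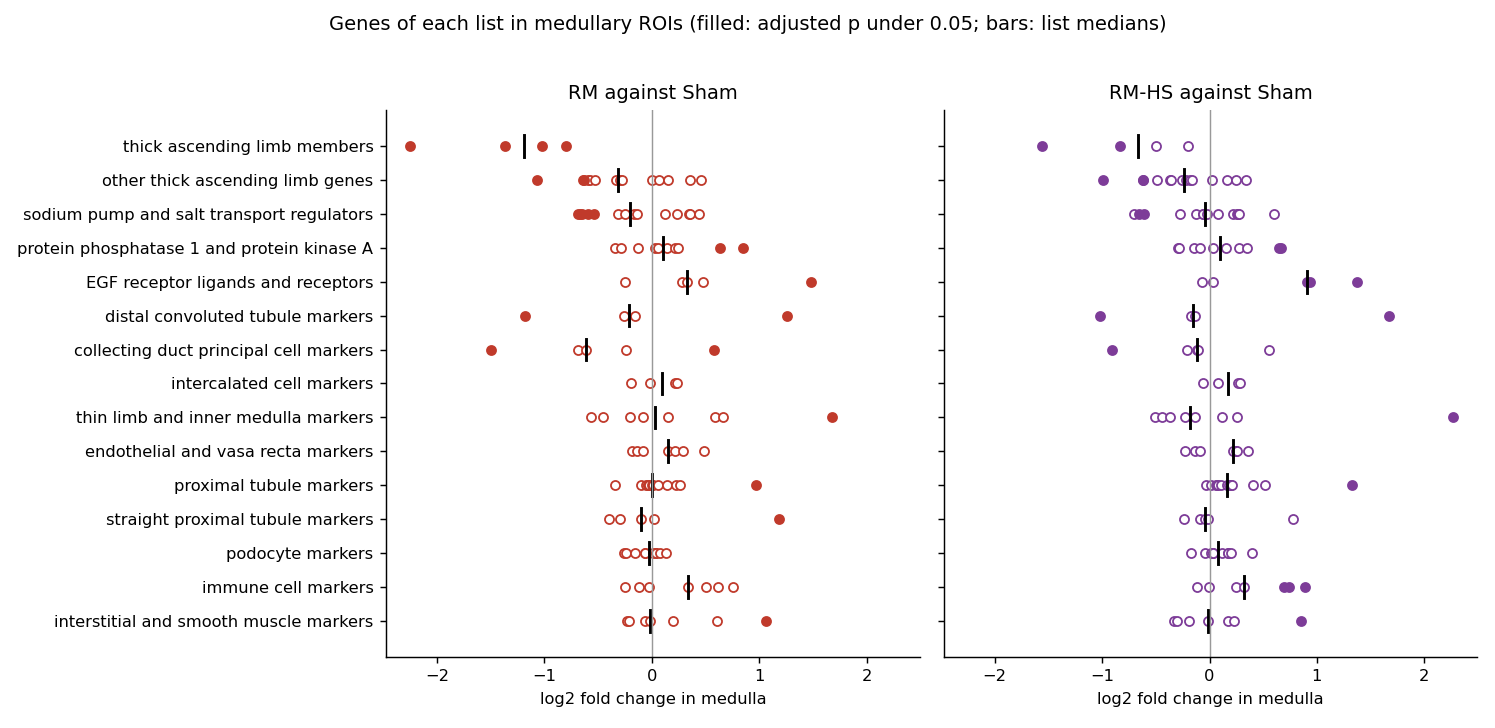
Log2 fold changes in medulla of every tested gene of each list, for RM against Sham (left) and RM-HS against Sham (right), from limma. Filled points had an adjusted p under 0.05 and bars are list medians. The median of the 4 members lies at -1.20 after RM and -0.66 after RM-HS, below that of each other list shown.

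Markers of neighbouring cell types moved beside these genes in medulla, and their part in the members' changes was not tested. Among 5 collecting duct principal cell markers, Aqp2, the water channel regulated by vasopressin, fell by 1.50 ± 0.28 after RM and by 0.91 ± 0.28 after RM-HS (adjusted p = 1.51e-05 and 0.0331), and Scnn1a rose by 0.58 after RM. The 5 summed to 339.5 to 518 in RM, 454 to 840.3 in HS, 424 to 542 in RM-HS and 351 to 864 in Sham. Among 8 markers of thin limb and inner medulla, Slc5a3, the transporter that takes up the osmolyte myo-inositol, was the only one to pass, rising by 1.68 ± 0.27 after RM and 2.27 ± 0.27 after RM-HS (adjusted p = 4.27e-07 and 8.58e-12). These 8 summed to 1485.5 to 2151 in RM, 934 to 1183 in HS, 1768 to 2692 in RM-HS and 699.7 to 1502 in Sham. Slc5a3 alone had medians of 872 in RM, 464 in HS, 1413 in RM-HS and 333 in Sham.

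Of 4 distal convoluted tubule markers, Slc16a7 fell and Sgms2 rose after RM and RM-HS, and Slc16a7 fell after HS. In Sham kidneys Slc16a7 was higher in medulla than in cortex (0.81 ± 0.17, adjusted p = 0.000103), unlike Slc12a3 (-2.28) and Slc8a1 (-0.96). Its medullary signal was thus not particular to that segment's markers. The 4 markers summed to 197 to 246 in RM, 112 to 225 in HS, 212 to 289 in RM-HS and 173 to 293 in Sham. Of 13 proximal tubule markers Slc4a4 rose after RM and RM-HS and none fell. Their sums were 463 to 565 in RM, 489 to 662 in HS, 558 to 676 in RM-HS and 426 to 622 in Sham, and 8 of the 13 averaged under 2 times the negative probe in Sham medulla. Of 5 tested markers of the straight proximal tubule, Gclm rose after RM, by 1.18. Vim, of 7 interstitial and smooth muscle markers, rose after RM and RM-HS, by 1.06 and 0.85. The immune markers C1qc, C1qb and Cd74, 3 of 7 tested, rose after RM-HS by 0.70 to 0.89, where 3.59% of all genes rose. The 7 immune markers summed to 326 to 499 in RM, 287 to 385 in HS, 398 to 523 in RM-HS and 282 to 392.1 in Sham. No podocyte, endothelial or intercalated cell marker passed in medulla after any injury.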

How the data were processed

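The deposited table holds Q3-normalised signal for 9272 features (9271 genes and a negative probe) in 132 ROIs, made by the authors with the GeoMx workflow, per the labels. Every ROI had an upper quartile of 58.2, and 100% of values in each ROI were whole multiples of 1 read within 0.0001 reads, which gave reads per ROI. A gene was kept where 10% or more of ROIs exceeded the negative probe by a factor of 2 (8827 genes). Values were log2(signal + 1), and fold changes on that scale understate the change of low genes. limma 3.58.1 (R 4.3.3) fitted 131 ROIs with a mean per injury and area, a plate term, and the 12 well runs as a random block (statmod 1.5.0, correlation 0.132), with Benjamini-Hochberg adjustment. Plates held 90, 41 and 1 ROIs, and the ROI alone on its plate was left out. Ratios used exact permutation tests (scipy 1.17.1). Scripts were tested on simulated data. Alternatives were another pseudocount, filters, scalings, blocks and tests (edgeR 4.0.16 on recovered reads), single plates, and each well run left out. The comparison of HS with the Sham runs of the other plate was chosen after seeing the data. The members and lists were chosen with earlier results of these data known. Named were the members, for each the 4 genes with the most similar means, and up to 4 genes per list that passed in medulla against Sham. Other list genes were named after their values were seen, and some are counted in their list but not reported here. Intervals come from this fit, in which 1 correlation within well runs served all genes, and cannot be taken to cover the spread between animals.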

Additional observations from a re-analysis of the deposited data

Results flagged for a closer look

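In 5 of 64 groups of ROIs 1 ROI stood apart from the rest, where chance gives about 5% of groups. Kcnj1 had a lowest value of 14.5 in RM-HS glomeruli (nearest 31.0) and a highest of 203 in RM medulla (nearest 141). Egf had a highest value of 748 in RM cortex (nearest 302). Ppp1r1a had highest values of 96.6 in RM-HS cortex (nearest 62.4) and 65.4 in RM-HS glomeruli (nearest 42.3).

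The effect of an injury differed between the 4 areas by limma's F test. For RM the F values were 9.86 for Slc12a1, 11.7 for Kcnj1, 12.3 for Egf and 77.3 for Ppp1r1a. For HS they were 5.57 for Slc12a1, 5.85 for Kcnj1, 6.15 for Egf and 10.6 for Ppp1r1a, and for RM-HS 29.3 for Ppp1r1a. Ppp1r1a differed between RM and HS by -1.57 in medulla and -1.001 at the junction (log2). The interaction of RM and HS in medulla was 1.41 for Kcnj1, 1.61 for Egf and 1.37 for Ppp1r1a, and in glomeruli it was -1.02 for Ppp1r1a. The glomerular value missed the threshold without RM 1 or RM-HS 2 (-0.98 in both, adjusted p = 0.0508 and 0.0578).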

How the results depend on the processing

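The calls of Ppp1r1a in RM and RM-HS medulla were kept under every alternative run, and the cause of the changes below was not tested. With the negative probe subtracted, medullary calls were lost for Slc12a1 after RM (-1.51) and RM-HS (-0.96) and for Kcnj1 after RM (-1.03) and HS (-0.93). With 1 mean per run and area they were lost for Kcnj1 after RM (-0.80) and HS (-1.12), Egf after RM (-1.02) and Slc12a1 after RM-HS (-0.83). Kcnj1 after HS also lost its call with total-read scaling (-1.06), no plate term (-0.90), plate E alone (-1.45) and the Sham runs of plate C (-0.62). After HS, calls were gained without the block for Slc12a1 (-0.99), Egf (-0.996) and Ppp1r1a (-0.68), with edgeR (-1.10, -1.03 and -0.66 for Slc12a1, Egf and Ppp1r1a), within medulla alone (-1.19, -1.21 and -0.85) and with quantile normalisation for Slc12a1 (-0.93). Kcnj1 after RM-HS gained one with quantile normalisation (-0.66) and edgeR (-0.55). Signs turned for Kcnj1 in RM against HS medulla (-0.0232 with quantile normalisation, -0.10 with the negative probe subtracted), for Egf there (0.0782 with edgeR, 0.29 within medulla), for Slc12a1 over Egf after HS (0.0152 with the negative probe subtracted) and for Kcnj1 after RM averaged over areas (0.0497 without Sham 2, the top of a range from -0.23).

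With each well run left out, medullary changes after RM ranged from -1.76 to -1.07 (Slc12a1), -1.26 to -0.53 (Kcnj1), -1.25 to -0.85 (Egf) and -2.39 to -2.17 (Ppp1r1a). After HS they ranged from -0.99 to -0.56 (Slc12a1), -1.41 to -0.88 (Kcnj1), -0.996 to -0.65 (Egf) and -0.92 to -0.43 (Ppp1r1a). Without HS 3 the medullary HS changes of Slc12a1, Egf and Ppp1r1a passed, as did that of Ppp1r1a without HS 1. HS 3 held no medullary ROI, and the block correlation was 0.0372 without it, against 0.132 in the main fit. After RM-HS the medullary changes ranged from -1.23 to -0.54 (Slc12a1), -0.95 to -0.23 (Kcnj1), -0.41 to -0.10 (Egf) and -1.70 to -1.48 (Ppp1r1a). The share of all genes called in medulla after RM, HS and RM-HS was 5.96%, 0.374% and 4.50%. It was 27.1%, 3.78% and 20.1% with edgeR, 13.8%, 5.70% and 9.80% within medulla alone, 10.4%, 1.14% and 8.81% with quantile normalisation, 3.39%, 0.261% and 2.42% with the negative probe subtracted, and 2.31%, 0.0113% and 1.69% with run means. Of the calls after RM, 81.2% were higher, against 63.5% with quantile normalisation, 70.8% with total-read scaling and 60.9% with edgeR. After RM-HS these shares were 79.8%, against 61.8%, 62.1% and 57.1%, and 69.2% with the negative probe subtracted. With that subtraction the median change of all genes in medulla was -0.24 after RM and -0.33 after RM-HS, and with total-read scaling it was -0.12 after RM-HS, against -0.07 after RM and -0.01 after RM-HS with the scaling reported. HS contrasts without Sham 3 could not be fitted with a plate term. No paired analysis was possible because the labels do not tie ROIs of different groups to each other.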
